A study of Macaca mulatta with 27 samples.

Results

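SOX2, SOX1, SOX3, SOX21, SOX4, SOX11, SOX5, SOX6, and ZIC2 encode transcription factors that act in pluripotent cells, in the developing nervous system, or in both. These 9 of the 17967 genes counted were chosen by symbol, and each of them is listed for every library. Their transcripts were counted by bulk RNA-seq in 27 libraries made from a rhesus macaque (Macaca mulatta) line of pluripotent stem cells (PSCs): 6 of primed cells and 3 for each of 7 reprogramming protocols. Primed PSCs resemble the late epiblast, and the protocols aim at an earlier, naive state. Cells of LCDM (EPS), t2iLGöY, 4i/L/b, NHSM-v, E-NHSM, TL-CDK8/19i, and TL2i were each compared with the same primed libraries, so these 7 comparisons share their controls. A further 3 comparisons set protocols against each other.

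Every group comes from LyonES-tGFP-(S3), a clonal line that carries tauGFP under the CAG promoter and a lentiviral STAT3-ERT2 transgene, a STAT3 fusion activated by tamoxifen. TL2i combines tamoxifen and LIF with inhibitors of MEK and GSK3β, and TL-CDK8/19i replaces both inhibitors with CNIO-47799, which inhibits CDK8 and CDK19. The remaining protocols ran without tamoxifen. Primed cells were passaged in clumps and all reprogrammed cells as single cells, so the effects of passaging and of protocol cannot be separated in comparisons with primed cells.

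SOX2, SOX1, and SOX3 are the SOXB1 factors: SOX2 binds DNA together with OCT4, the product of POU5F1, in pluripotent cells, and all of them maintain neural progenitors, where class III POU factors are their partners. SOX21 (SOXB2) opposes SOXB1 activity, SOX4 and SOX11 (SOXC) act as neurons differentiate, and SOX5 and SOX6 (SOXD) act in chondrocytes, neurons, and glia. ZIC2, a zinc-finger protein, is present in primed pluripotent cells and in the dorsal neural tube.

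The libraries held between 7111886 and 20760914 counts, with a median of 12201171. Group medians were 10606171.5 counts in primed cells, 18229288 in E-NHSM, 10297422 in NHSM-v, 10547609 in 4i/L/b, 16354474 in TL2i, 13617437 in t2iLGöY, 17494703 in LCDM, and 9652295 in TL-CDK8/19i. Levels are CPM, counts scaled to library size with TMM factors, and 3 counts equal 0.138 to 0.422 CPM depending on the library. Replicates varied beyond sampling error, with a chi-square per gene of 3.98 to 29.8 over the 36 replicate pairs, where sampling alone gives 1. The labels do not say that cultures were independent, so p-values measure only the spread between these samples. Bulk counts cannot tell fewer cells of a type from less RNA per cell, and intervals printed with ratios cover counting error only.

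POU5F1 was not reduced in E-NHSM, reduced in TL-CDK8/19i, and nearly absent in the other 5 protocols. Primed libraries held 1130 to 1280 CPM of POU5F1, E-NHSM a mean of 1360, and TL-CDK8/19i 411 to 596. Means were 6.43 CPM in TL2i, 3.09 in LCDM, 0.296 in NHSM-v, 0.905 in 4i/L/b, and 1.17 in t2iLGöY, so in these 5 protocols the usual OCT4 partner of SOX2 is close to absent at the RNA level. Summed over 10 pluripotency markers, the means were 3250 CPM in primed cells, 3390 in E-NHSM, 1430 in TL-CDK8/19i, 397 in TL2i, 79.1 in 4i/L/b, 39.1 in LCDM, 18.7 in t2iLGöY, and 14.9 in NHSM-v. Of the 9 markers tested, all 9 were lower than in primed cells in LCDM, TL2i, 4i/L/b, and NHSM-v, 8 in t2iLGöY and in TL-CDK8/19i, and 2 in E-NHSM, where 2 were higher. In E-NHSM both counts are 1 without replicate 2 or with all 8 groups fitted together, and 4 are higher against J alone or with no filter. Of all genes tested, from 15.1% (E-NHSM) to 30.6% (NHSM-v) were lower than in primed cells, and 11.1% were higher in E-NHSM. TL2i kept some of the markers, such as LIN28A at 271 CPM, beside 261 in TL-CDK8/19i and 576 in primed cells. NANOG, which marks the naive and the primed state, had 0 counts in NHSM-v and in t2iLGöY, at least 1330-fold and at least 1970-fold under its primed level of 134 CPM. LCDM, t2iLGöY, TL2i, 4i/L/b, and NHSM-v are therefore named here by protocol and not as pluripotent states.

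**Figure D1:**
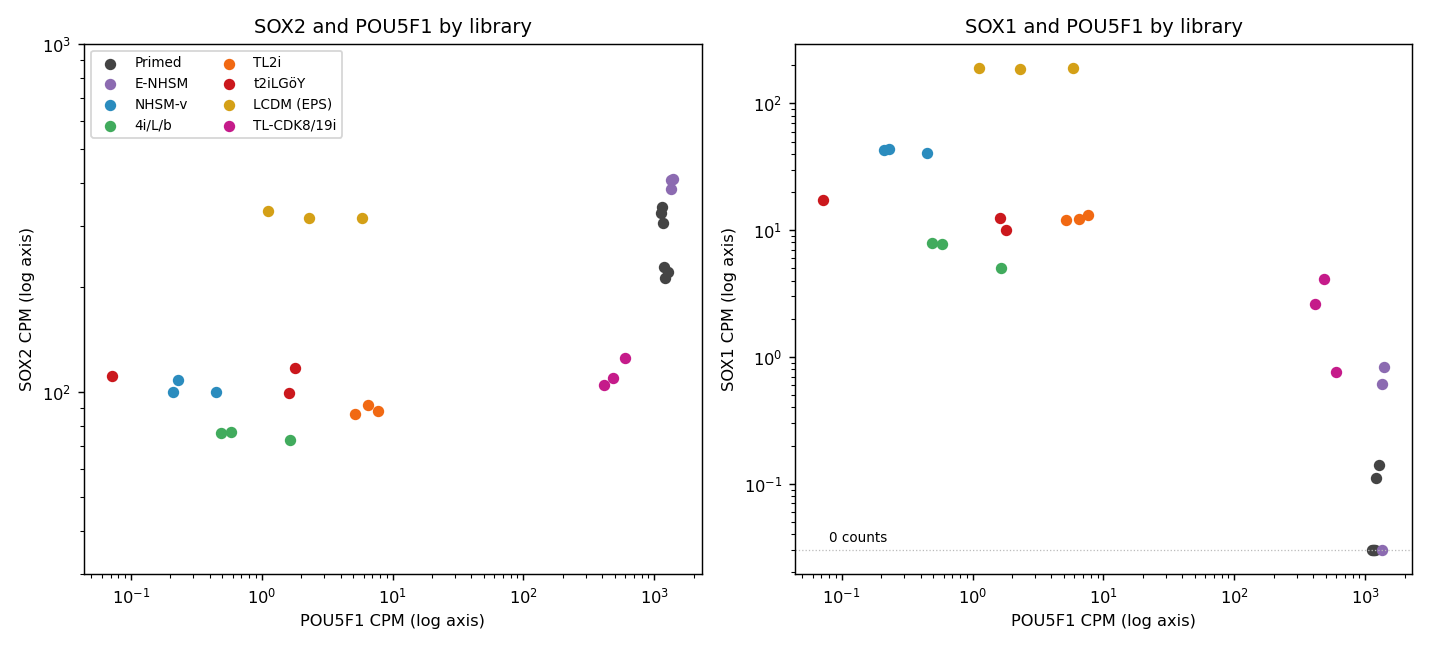
SOX2 and SOX1 (vertical axes, CPM) against POU5F1 (horizontal axis, CPM) for each library on log axes; the dotted line holds libraries with 0 counts. LCDM libraries lie at the SOX2 level of primed cells with little POU5F1, and they have the most SOX1.

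Members moved in both directions. Across the 7 comparisons with primed cells, 31 of 63 results for members were higher, 14 lower, and 16 not called at an adjusted p below 0.05, and 2 could not be tested. In E-NHSM, 3 of the 8 members tested were higher (SOX2, SOX21, and SOX4) and 1 was lower (ZIC2), beside 11.1% and 15.1% of all 13304 genes tested, with median log2 fold changes of -0.44 for the members and 0.02 for all genes. NHSM-v had 5 of 9 members higher and 3 lower, beside 28% and 30.6% of 13268 genes (medians 0.45 and -0.02). For 4i/L/b these counts were 6 of 9 higher and 2 lower, beside 26.6% and 29% of 13558 genes (medians 0.72 and 0.01). In TL2i, 4 of 9 members were higher and 3 lower, beside 25.6% and 25.2% of 13808 genes (medians 0.27 and 0.07). The t2iLGöY cells had 5 of 9 members higher and 2 lower, beside 27.1% and 27.2% of 13662 genes (medians 1.51 and 0.02). LCDM had 6 of 9 members higher and 1 lower, beside 28.2% and 28.9% of 13625 genes (medians 2.36 and 0.03). Its median is the highest, but it is the value of SOX6, which was not called (SE 0.992, edgeR adjusted p 0.056). The count of members higher is the same in 4i/L/b. In TL-CDK8/19i, 2 of 8 members were higher and 2 lower, close to the 22.3% and 23.8% of 13359 genes (medians 0.75 and 0.02). With members set to their bounds where counts were low, no median of the members moved beyond rounding.

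**Figure D2:**
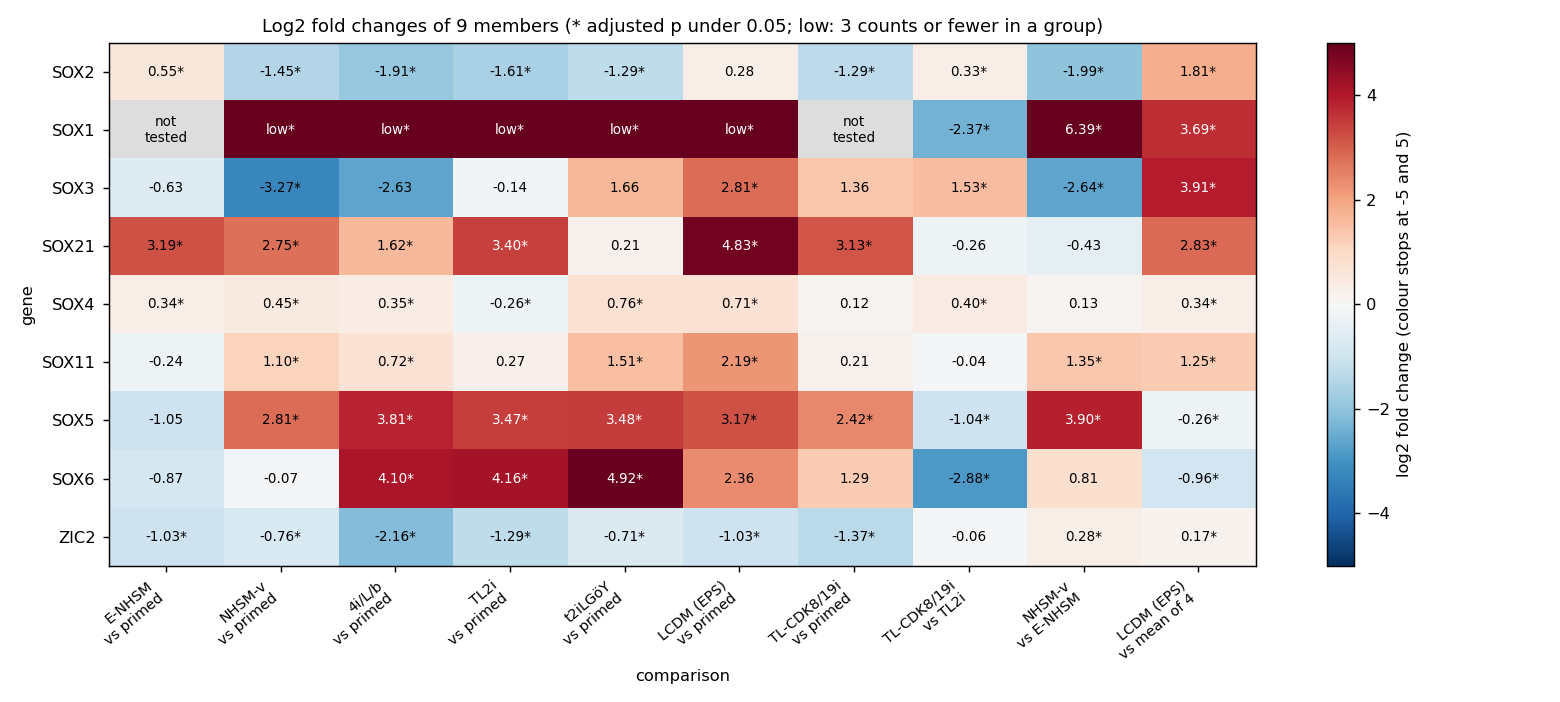
Log2 fold changes of the members (vertical) in the 10 comparisons (horizontal), with an asterisk where adjusted p is below 0.05; colors stop at -5 and 5, "low" marks values resting on 3 counts or fewer in a group, and grey marks genes not tested. Against primed cells, ZIC2 is lower in all protocols and SOX5 and SOX21 are higher in most, while SOX2 is lower except in E-NHSM and LCDM.

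SOX2 was high in primed cells, at 213 to 341 CPM (median 267) by library. E-NHSM libraries held 382, 410, and 407 CPM, and those of LCDM 317, 317, and 332. E-NHSM lies above the whole primed range, and LCDM within it. SOX2 was at 108, 100, and 99.8 CPM in NHSM-v, 76.6, 76.2, and 72.6 in 4i/L/b, 88.3, 86.7, and 92.1 in TL2i, 99.2, 117, and 111 in t2iLGöY, and 110, 105, and 125 in TL-CDK8/19i. All of these libraries are below the lowest primed library, yet none is near 0. TL-CDK8/19i, t2iLGöY, and NHSM-v overlap with their neighbors in this order, and TL2i and then 4i/L/b lie apart at the bottom. SOX2 fell 3.75-fold in 4i/L/b (log2 fold change -1.91, SE 0.157, edgeR adjusted p 2.4e-07), its largest decrease. SOX2 was lower by 3.05-fold in TL2i (edgeR adjusted p 1.2e-06), 2.74-fold in NHSM-v (8.6e-07), 2.45-fold in TL-CDK8/19i (9.8e-06), and 2.44-fold in t2iLGöY (4.2e-06). In E-NHSM it was 1.47-fold higher (log2 0.55, SE 0.124, edgeR adjusted p 0.0027). In LCDM the difference from primed cells was not called (log2 0.28, edgeR adjusted p 0.095), so SOX2 was not reduced there although POU5F1 was nearly absent. SOX2 was called higher in LCDM in 5 of 17 alternatives: with DESeq2 (adjusted p 0.045), and in edgeR with at least 10 counts in every library (0.036), with all 8 groups fitted together (0.024), without K3 (0.026), and against J alone (4.5e-05). Primed columns lettered J averaged 221 CPM of SOX2 and those lettered K 324, without overlap.

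**Figure D3:**
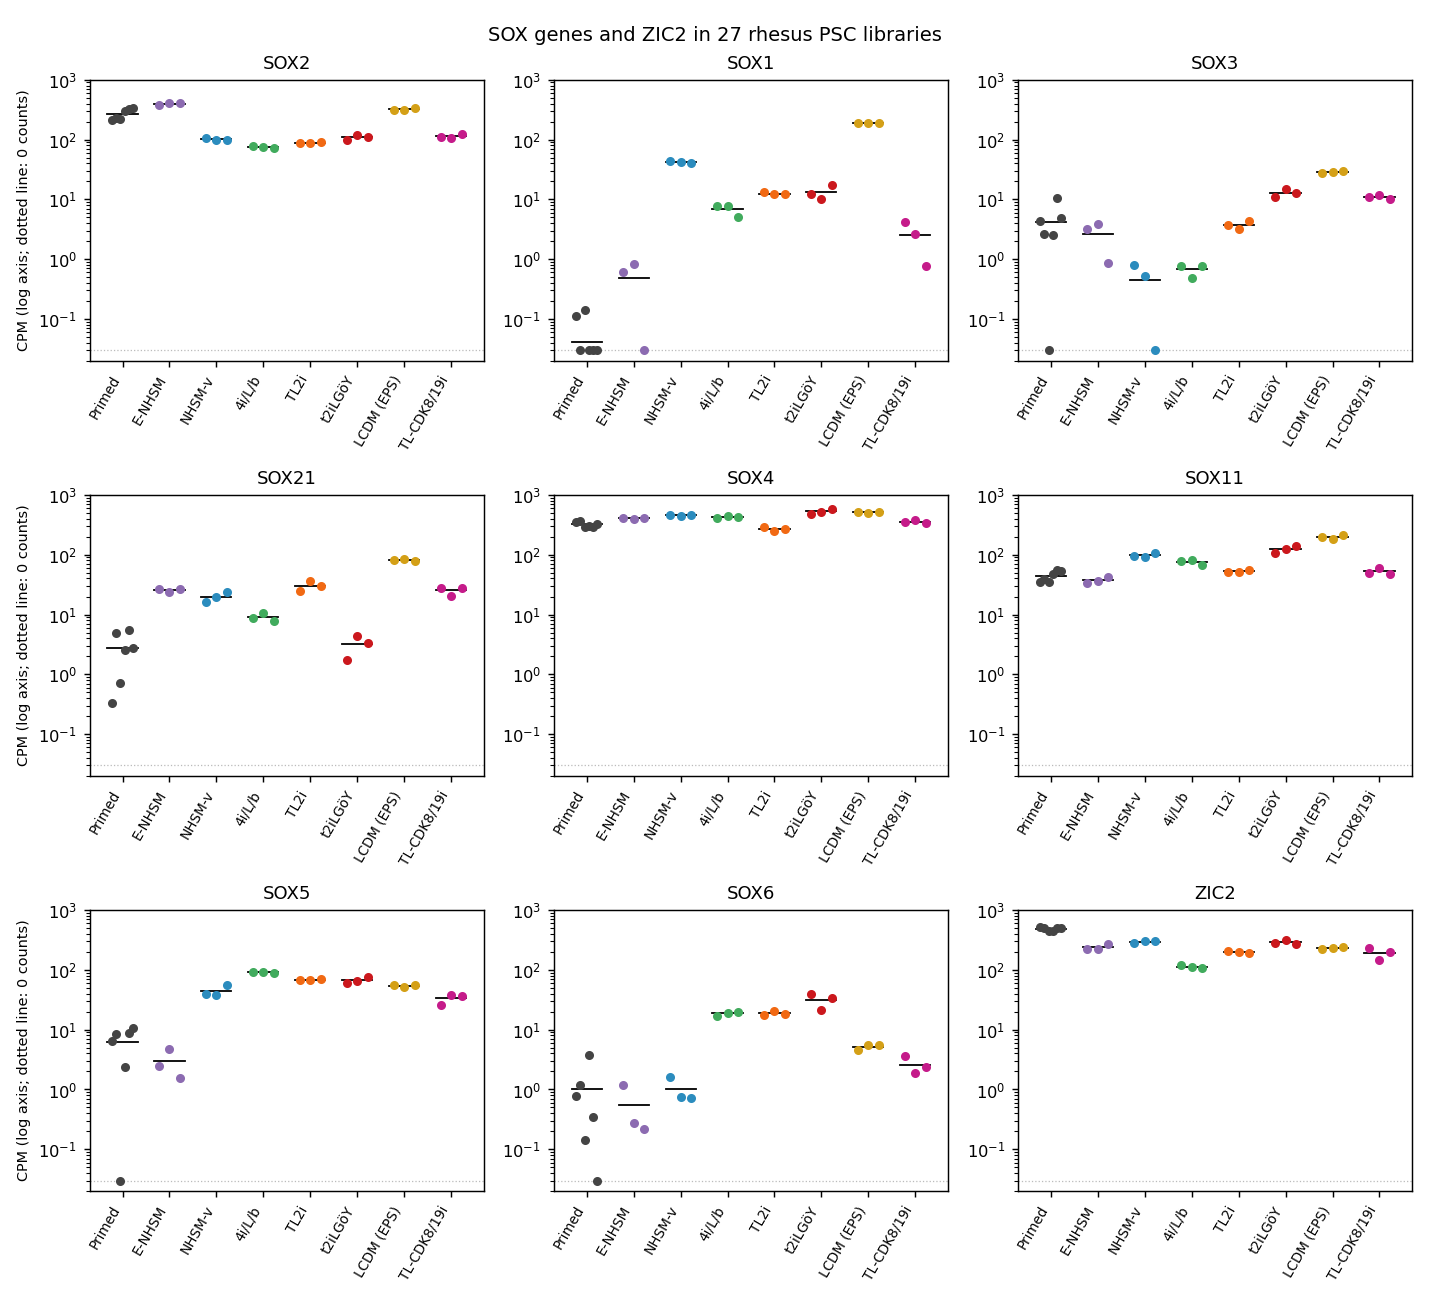
CPM of each member (panels, log axes) by group, with a point for each library, a bar at the group mean, and a dotted line for 0 counts. LCDM has the highest SOX1, SOX3, SOX21, and SOX11, and primed cells the highest ZIC2.

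SOX1, an early marker of neural commitment that is usually silent in PSCs, had 2 counts in the 6 primed libraries combined, at most 0.141 CPM in any of them. LCDM libraries held 190, 186, and 190 CPM and NHSM-v libraries 43.7, 42.8, and 40.4. Levels were 12.4, 10, and 17.2 CPM in t2iLGöY, 13.1, 12.1, and 12.3 in TL2i, and 7.82, 7.88, and 5.03 in 4i/L/b. Every library of these 5 protocols, the same ones that nearly lost POU5F1, is far above every primed library. LCDM is highest, then NHSM-v, then t2iLGöY and TL2i, which overlap, then 4i/L/b. Pooled ratios to primed cells were 5880 in LCDM (95% counting interval 1630 to 48500), 1310 in NHSM-v (363 to 10900), 408 in t2iLGöY (113 to 3380), 391 in TL2i (108 to 3230), and 213 in 4i/L/b (58.1 to 1770). The primed counts, 1 each in J1 and J3, set these ratios, and fitted folds moved 4.17 to 5.28 times against K alone. SOX1 was called in all of them, with edgeR adjusted p of 4.1e-13 in LCDM, 1.8e-10 in NHSM-v, 7.4e-07 in t2iLGöY, 7e-07 in TL2i, and 2.3e-05 in 4i/L/b. TL-CDK8/19i libraries held 4.14, 2.63, and 0.761 CPM, 68 counts in all, and each exceeds the highest primed library. E-NHSM had 28 counts (0.61, 0.832, and 0 CPM), with 2 of 3 libraries above the primed range. The expression filter removed SOX1 from these last comparisons, whose pooled ratios were 74.8 (19.9 to 630) for TL-CDK8/19i and 15.1 (3.8 to 130) for E-NHSM. With no filter SOX1 was called higher in TL-CDK8/19i (edgeR adjusted p 0.003) but not in E-NHSM (0.26), and with all 8 groups fitted together in both (1.1e-07 and 0.0044).

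SOX3, which marks the neural plate and is also present in some PSCs, was low and variable in primed cells, at 0 to 10.6 CPM (median 3.51). LCDM libraries held 28.1, 29, and 29.8 CPM, and those of t2iLGöY 10.8, 15.1, and 12.8. TL-CDK8/19i libraries had 11.1, 11.8, and 10.1 CPM, TL2i libraries 3.71, 3.22, and 4.37, and E-NHSM libraries 3.24, 3.88, and 0.861. Only LCDM stands clear of every other group, while t2iLGöY, TL-CDK8/19i, primed, TL2i, and E-NHSM form a chain of overlapping neighbors. The rise was 7.02-fold in LCDM (log2 2.81, SE 0.602, edgeR adjusted p 0.0012). NHSM-v (0 to 0.804 CPM, 12 counts) and 4i/L/b (0.772, 0.492, and 0.774 CPM, 20 counts) were lowest and overlap each other. Against primed cells SOX3 was called lower in NHSM-v (log2 -3.27, SE 1.3, edgeR adjusted p 0.042), but no NHSM-v library lies under the primed range, and leaving out any of its 3 libraries ends the call (log2 -3.99 without replicate 1 and -2.65 without replicate 3; adjusted p of 0.061, 0.094, and 0.12). Leaving out primed library J1, J2, K2, or K3 ends it as well (edgeR adjusted p of 0.062, 0.051, 0.11, and 0.063). SOX3 was not called in 4i/L/b (log2 -2.63, edgeR adjusted p 0.051) or in t2iLGöY (log2 1.66, edgeR adjusted p 0.063), and without J3, the primed library with 0 counts, both were called (-2.86 with 0.0025, and 1.39 with 0.016). It was also called in 4i/L/b with DESeq2 (adjusted p 0.013), and in edgeR with all 8 groups (0.0027) and against K alone (0.0014). In t2iLGöY DESeq2 called it too (adjusted p 0.041), as did edgeR with all 8 groups (0.0095), without K2 (0.022), and against J alone (log2 2.45, 0.032). In TL-CDK8/19i it was not called either (log2 1.36, edgeR adjusted p 0.13). There edgeR called it without J3 (1.11, 0.046) or K2 (1.88, 0.046), and with all 8 groups (1.39, 0.031). Differences in E-NHSM (log2 -0.63, edgeR adjusted p 0.66) and TL2i (-0.14, 0.91) were not called.

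SOX21, a SOXB2 repressor of neural progenitor genes, was at 0.333 to 5.58 CPM in primed libraries (median 2.65). Libraries of LCDM held 80.5, 84.2, and 77.7 CPM, TL2i 24.4, 36.3, and 30.3, E-NHSM 27, 24.1, and 26.9, TL-CDK8/19i 28.1, 20.7, and 27.9, and NHSM-v 16.3, 19.4, and 23.4. LCDM is apart at the top, and TL2i, E-NHSM, TL-CDK8/19i, and NHSM-v overlap in sequence. SOX21 rose in both E-NHSM and TL-CDK8/19i, the protocols with the most POU5F1, to levels that overlap with those of TL2i, which has little. The increase was 28.4-fold in LCDM (log2 4.83, SE 0.444, edgeR adjusted p 5e-07), 10.6-fold in TL2i (0.00011), 9.1-fold in E-NHSM (9.4e-05), 8.73-fold in TL-CDK8/19i (0.00027), and 6.71-fold in NHSM-v (0.00077). In 4i/L/b (8.69, 10.6, and 7.74 CPM) all libraries are above the primed range, and SOX21 was called higher at the margin (log2 1.62, SE 0.653, edgeR adjusted p 0.049). That call ends without K1 (adjusted p 0.064), K3 (0.065), or any 4i/L/b library (0.11, 0.15, and 0.092) in edgeR. Libraries of t2iLGöY (1.77, 4.42, and 3.31 CPM) overlap with primed cells, and the difference was not called (log2 0.21, edgeR adjusted p 0.86).

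SOX4, a SOXC factor found in many progenitors, was abundant everywhere, with primed libraries at 291 to 361 CPM (median 313). Levels were 477, 515, and 591 CPM in t2iLGöY, 514, 490, and 526 in LCDM, 467, 438, and 454 in NHSM-v, 404, 435, and 430 in 4i/L/b, and 405, 392, and 417 in E-NHSM. These 5 groups are all above the primed range, where t2iLGöY overlaps with LCDM and 4i/L/b with E-NHSM. Its changes were small: SOX4 was higher 1.69-fold in t2iLGöY (log2 0.76, edgeR adjusted p 7e-06), 1.63-fold in LCDM (0.71, 4.8e-06), 1.37-fold in NHSM-v (0.45, 0.00029), 1.28-fold in 4i/L/b (0.35, 0.0029), and 1.27-fold in E-NHSM (0.34, 0.0058). TL-CDK8/19i (348, 380, and 341 CPM) overlaps with primed cells and was not called (log2 0.12, edgeR adjusted p 0.3). TL2i (285, 252, and 264 CPM) lies under the primed range, and SOX4 was 1.2-fold lower there (log2 -0.26, edgeR adjusted p 0.033). That TL2i call ends in 7 of 17 alternatives, among them upper-quartile scaling (edgeR adjusted p 0.069) and leaving out TL2i replicate 2 (0.14) or 3 (0.11).

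SOX11, the SOXC gene of immature neurons, was at 34.6 to 56.1 CPM in primed cells (median 44). It was at 197, 182, and 215 CPM in LCDM, 107, 123, and 142 in t2iLGöY, 95.3, 91.5, and 108 in NHSM-v, and 78.1, 81.6, and 67.7 in 4i/L/b. All libraries of these groups exceed the primed range; LCDM stands apart, t2iLGöY and NHSM-v overlap, and 4i/L/b follows. SOX11 rose 4.56-fold in LCDM (log2 2.19, SE 0.142, edgeR adjusted p 1.3e-08), 2.86-fold in t2iLGöY (1.2e-06), 2.14-fold in NHSM-v (2.4e-05), and 1.65-fold in 4i/L/b (0.0016). TL2i (52.1, 51.8, and 56.4 CPM), TL-CDK8/19i (50.3, 59, and 48.2), and E-NHSM (33, 36.8, and 43.1) overlap with primed cells. No difference was called in them (log2 0.27, 0.21, and -0.24; edgeR adjusted p 0.18, 0.33, and 0.35). Primed columns again fall into separate sets for SOX11, with means of 36.4 CPM in J and 52.4 in K. Against J alone it was called higher in TL2i (log2 0.55, edgeR adjusted p 0.0071) and in TL-CDK8/19i (0.49, 0.022), and against K alone lower in E-NHSM (-0.46, 0.023).

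SOX5, a SOXD factor without a transactivation domain of its own, was at 0 to 10.5 CPM in primed libraries (median 7.52). It reached 91.3, 92.9, and 87.3 CPM in 4i/L/b, 68.6, 66.6, and 70.3 in TL2i, 61.1, 65.7, and 76.3 in t2iLGöY, 56.4, 51.3, and 55.5 in LCDM, 38.8, 38.5, and 56.8 in NHSM-v, and 26, 38.3, and 36.8 in TL-CDK8/19i. All 6 groups are above every primed library, including TL-CDK8/19i, where POU5F1 was reduced but present. TL2i overlaps with t2iLGöY and LCDM with NHSM-v, and 4i/L/b and TL-CDK8/19i stand apart from their neighbors. SOX5 was higher by 14.1-fold in 4i/L/b (log2 3.81, SE 0.505, edgeR adjusted p 2.2e-05), 11.2-fold in t2iLGöY (5.8e-05), 11-fold in TL2i (8.3e-05), 9.02-fold in LCDM (2e-04), 7.01-fold in NHSM-v (0.00058), and 5.35-fold in TL-CDK8/19i (0.0037). In E-NHSM (2.49, 4.77, and 1.56 CPM) SOX5 overlaps with primed cells and was not called (log2 -1.05, edgeR adjusted p 0.38). It was called lower there in 1 of 16 alternatives, edgeR with all 8 groups fitted together (log2 -1.09, adjusted p 0.045).

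SOX6, the SOXD partner of SOX5, was nearly absent in primed cells, at 0 to 3.72 CPM (median 0.566), and the highest value, that of K1, stands apart from the others. Levels were 39.1, 21.5, and 33.6 CPM in t2iLGöY, 17.9, 20.6, and 18.1 in TL2i, and 17.2, 19.3, and 19.7 in 4i/L/b. These 3 groups are well above primed cells, with t2iLGöY apart and TL2i and 4i/L/b overlapping. The rise was 30.4-fold in t2iLGöY (log2 4.92, SE 0.724, edgeR adjusted p 3.9e-05), 17.9-fold in TL2i (4.16, SE 0.767, 0.00048), and 17.1-fold in 4i/L/b (4.10, SE 0.79, 0.00058). Without K1 these log2 fold changes are 6.01, 5.26, and 5.23. LCDM libraries (4.56, 5.49, and 5.58 CPM) all exceed the primed ones. SOX6 was not called there (log2 2.36, SE 0.992, edgeR adjusted p 0.056), but was in 5 of 16 alternatives. edgeR called it without K1 (log2 3.42, adjusted p 0.0073), against J alone (2.89, 0.01), with no filter (0.049), and with all 8 groups (0.00056). DESeq2 called it too (adjusted p 0.032). TL-CDK8/19i (3.57, 1.86, and 2.38 CPM), NHSM-v (1.61, 0.736, and 0.718), and E-NHSM (1.17, 0.277, and 0.215) overlap with primed cells. SOX6 was not called in any of them (log2 1.29, -0.07, and -0.87; edgeR adjusted p 0.36, 0.97, and 0.72), while SOX5 was called higher in NHSM-v and TL-CDK8/19i. Without K1 the SOX6 value in TL-CDK8/19i is 2.36 (edgeR adjusted p 0.076).

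ZIC2, a factor of primed pluripotent cells, was highest in primed cells, at 438 to 516 CPM (median 499). Libraries held 281, 300, and 304 CPM in NHSM-v, 279, 321, and 266 in t2iLGöY, 220, 225, and 267 in E-NHSM, and 222, 234, and 239 in LCDM. Means were lower still in TL2i (206, 196, and 191 CPM), TL-CDK8/19i (230, 147, and 200), and 4i/L/b (119, 111, and 107). No protocol overlaps with primed cells; NHSM-v, t2iLGöY, E-NHSM, and LCDM overlap in sequence, TL-CDK8/19i overlaps with TL2i, E-NHSM, and LCDM, and 4i/L/b is apart at the bottom. ZIC2 is the only member called in all 7 comparisons with primed cells, each time lower. ZIC2 fell 4.47-fold in 4i/L/b (log2 -2.16, SE 0.0838, edgeR adjusted p 1.7e-10), 2.58-fold in TL-CDK8/19i (5e-07), and 2.44-fold in TL2i (1.6e-08). It was lower 2.04-fold both in E-NHSM and in LCDM (edgeR adjusted p 5.1e-08 and 3.4e-08), 1.7-fold in NHSM-v (5.4e-07), and 1.64-fold in t2iLGöY (4.2e-06). E-NHSM therefore had less ZIC2 although its SOX2 and POU5F1 were not reduced.

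TL-CDK8/19i and TL2i share tamoxifen and LIF and differ in the inhibitors. Of the 9 members, 3 were higher in TL-CDK8/19i (SOX2, SOX3, and SOX4) and 3 lower (SOX1, SOX5, and SOX6), beside 31.5% and 33.3% of 13729 genes (medians -0.06 for members and -0.04 for all). SOX6 was 7.36-fold lower (log2 -2.88, SE 0.234, edgeR adjusted p 1.7e-07), SOX1 5.15-fold (-2.37, SE 0.364, 6.3e-05), and SOX5 2.06-fold (-1.04, SE 0.13, 1e-05). SOX3 was 2.88-fold higher (log2 1.53, SE 0.228, edgeR adjusted p 4.8e-05), a call that ends when all 8 groups are fitted together (adjusted p 0.052). SOX4 and SOX2 were higher by 1.32-fold and 1.26-fold (edgeR adjusted p 0.0015 and 0.0069), so SOX2 differed little although POU5F1 was far apart between these groups. SOX21, SOX11, and ZIC2 were not called (log2 -0.26, -0.04, and -0.06; edgeR adjusted p 0.18, 0.73, and 0.71).

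NHSM-v and E-NHSM lie at opposite ends for pluripotency markers. Against E-NHSM, 4 of 9 members were higher in NHSM-v (SOX1, SOX11, SOX5, and ZIC2) and 2 lower (SOX2 and SOX3), beside 33.4% and 34.8% of 13392 genes (medians 0.28 and -0.03). SOX2 was 3.98-fold lower (log2 -1.99, SE 0.0686, edgeR adjusted p 3.5e-12) and SOX1 84-fold higher (6.39, SE 0.464, 1.5e-08). SOX5 was 14.9-fold higher (log2 3.90, edgeR adjusted p 1.1e-07), SOX11 2.55-fold (1.35, 3.3e-07), and ZIC2 1.21-fold (0.28, 0.0056). SOX3 was lower (log2 -2.64, SE 1.08, edgeR adjusted p 0.042), and 6 of 12 alternatives end that call, among them leaving out any NHSM-v library (log2 -3.38 without replicate 1 and -2.02 without replicate 3; adjusted p of 0.053, 0.086, and 0.11). SOX21, SOX4, and SOX6 were not called (log2 -0.43, 0.13, and 0.81; edgeR adjusted p 0.066, 0.052, and 0.51). In alternatives SOX4 was called higher in 4 of 13 (such as DESeq2, adjusted p 0.013) and SOX21 lower in 2 of 13 (edgeR with upper-quartile scaling, 0.028, and without NHSM-v replicate 3, 0.037).

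LCDM was also set against the mean of the log2 levels of t2iLGöY, TL2i, 4i/L/b, and NHSM-v, the other protocols with little POU5F1. Here 7 members were higher and 2 lower, beside 28% and 24.3% of 14233 genes (medians 1.25 and 0.04). The members higher include SOX2, for whose known level the comparison was chosen, so that part of the count was fixed in advance. A mean of logs gives weight to the lowest of the 4 groups. SOX3 was higher in LCDM by 3.91 log2 units (SE 0.227, edgeR adjusted p 8e-14), with a mean of 29 CPM beside 12.9 in t2iLGöY, the next group. SOX1 was higher by 3.69 (SE 0.0982, edgeR adjusted p 8.2e-21), with 189 CPM beside 42.3 in NHSM-v. The difference in SOX2 (log2 1.81, SE 0.0545) restates the level for which this comparison was chosen, so no p-value is given for it. SOX21 was higher by 2.83 (80.8 CPM beside 30.3 in TL2i, edgeR adjusted p 1.4e-15), SOX11 by 1.25 (198 beside 124 in t2iLGöY, 1.5e-13), and SOX4 by 0.34 (1.4e-05), where LCDM overlaps with t2iLGöY. SOX6 was lower (log2 -0.96, edgeR adjusted p 0.00031), but its 5.21 CPM lie above the 1.02 of NHSM-v and under the other 3 groups, and with all 8 groups fitted together it was not called (0.14). ZIC2, counted as higher, has 232 CPM in LCDM, under NHSM-v (295) and t2iLGöY (289) and over TL2i (198) and 4i/L/b (112). Small differences in SOX5 (log2 -0.26, edgeR adjusted p 0.029) and ZIC2 (0.17, 0.021) end in 4 and 5 of 22 alternatives, for example without LCDM replicate 2 (0.14 and 0.068).

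Other genes of these families moved beside the members, and their counts too are to be read beside the shares of all genes given for each protocol. Of 11 further SOX genes, those higher and lower than in primed cells were 0 and 1 of 6 tested in E-NHSM, 2 and 1 of 6 in NHSM-v, 4 and 1 of 7 in 4i/L/b, 5 and 1 of 7 in TL2i, 3 and 1 of 6 in t2iLGöY, 2 and 1 of 6 in LCDM, and 4 and 1 of 7 in TL-CDK8/19i. Their median log2 fold changes were -0.33, 0.65, 1.46, 2.84, 2.44, 1.38, and 2.04 in that order. The higher count is not firm for TL-CDK8/19i, where it is 2 when K2 or any library of its own is left out, or for 4i/L/b, where it is 2 without replicate 1 or 2. With all 8 groups fitted together it is 5 in t2iLGöY and in LCDM. For NHSM-v and LCDM, 2 of 6 is close to the 28% and 28.2% of all genes that were higher. SOX13, the remaining SOXD gene, is the lower gene in each, with 142 CPM in primed cells and 7.12 in NHSM-v (log2 -4.37), so in the 6 protocols where SOX5 was higher SOX13 was lower. SOX10, which marks neural crest and oligodendrocytes, rose from 1.51 CPM to 178 in t2iLGöY (log2 7.04), 126 in TL2i (6.51), 35.4 in 4i/L/b (4.56), and 20.2 in TL-CDK8/19i (3.74). SOX9, a chondrocyte and crest factor, was at 54.1 CPM in t2iLGöY and 3.41 in primed cells (log2 4.01). SOX17, an endoderm and germ-cell factor, was at 22.2 CPM in TL2i (log2 5.74, edgeR adjusted p 0.00027); its primed counts lie almost all in J2, without which the value is 9.62.

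ZIC1 and ZIC4, which mark the dorsal neural tube and cerebellar progenitors, were higher in 6 protocols, where ZIC2 was lower. ZIC1 rose from 0.751 CPM in primed cells to 587 in t2iLGöY (log2 9.52), 356 in LCDM (8.80), 352 in NHSM-v (8.70), 184 in TL2i (7.82), 95.9 in 4i/L/b (6.83), and 13.8 in TL-CDK8/19i (4.10), where single libraries held 29.5, 7.68, and 4.19 (log2 2.94 without the first). In E-NHSM it was at 0.074 CPM and was not called. ZIC4 had 2 counts in primed cells, and pooled ratios ran from 150 (40.6 to 1250) in TL-CDK8/19i to 15100 (4190 to 125000) in t2iLGöY. In TL-CDK8/19i 98 of the 136 ZIC4 counts come from replicate 1, which also holds the most ZIC1. ZIC5, the neighbor of ZIC2 on the chromosome, was lower in 5 protocols, most in 4i/L/b (log2 -1.61).

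POU3F2 (BRN2), a neural partner of SOX2, was at 0.311 CPM in primed cells and 325 in LCDM (log2 10.05), 63.6 in t2iLGöY (7.69), 41.6 in 4i/L/b (6.98), 35.3 in NHSM-v (6.75), 32.1 in TL2i (6.67), and 11.9 in TL-CDK8/19i (5.18). With few counts in primed cells, the folds of POU3F2, ZIC1, and SOX10 move by over 1.5 times with the primed libraries used, and all stay called. POU3F3 likewise was highest in LCDM, at 240 CPM, followed by t2iLGöY at 23.2. Its log2 fold change of 10.99 in LCDM is 13.1 without K3, which holds 6 of its 7 primed counts. Both genes were highest in LCDM, but class III POU genes were higher than in primed cells in all 5 protocols that had little POU5F1. POU3F2 was higher in TL-CDK8/19i as well, where POU5F1 was reduced but present. Of 5 POU genes, 0 of 2 tested were higher in E-NHSM, 3 of 5 in TL2i, NHSM-v, and 4i/L/b, 4 of 5 in t2iLGöY and LCDM, and 1 of 3 in TL-CDK8/19i, with 1 lower in LCDM and in 4i/L/b. In 4i/L/b the lower gene, POU2F1, loses its call when any 4i/L/b library is left out, under either other scaling, and with DESeq2 (adjusted p 0.08). Their medians were 0.60 in E-NHSM, 3.75 in TL2i, 4.04 in NHSM-v, 3.86 in 4i/L/b, 7.60 in t2iLGöY, 10.10 in LCDM (10 at the bound), and 1.02 in TL-CDK8/19i.

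**Figure D4:**
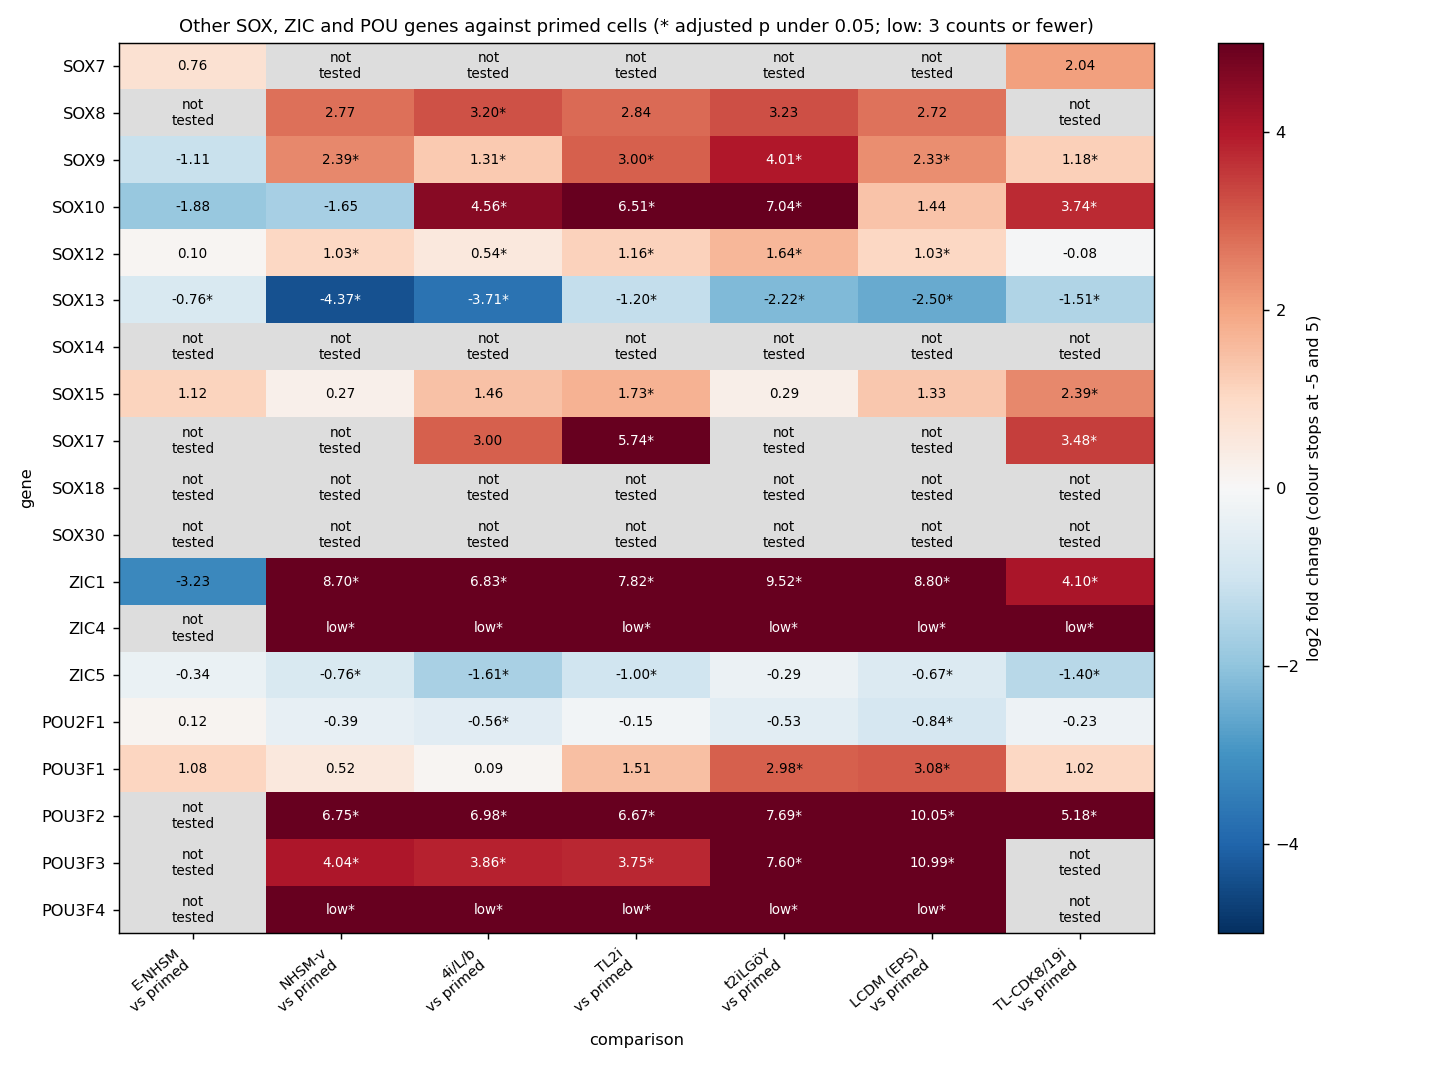
Log2 fold changes of further SOX, ZIC, and POU genes (vertical) in the 7 protocols against primed cells (horizontal), marked as for the members. ZIC1, ZIC4, and POU3F2 are higher in 6 protocols and SOX13 is lower in all.

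Markers of neural cells were counted beside the members, and the shares of all genes given for each protocol are the background of these counts too. Neural progenitor markers (8 genes, NES the most counted in every group) sum to a mean of 2520 CPM in primed cells, 1320 in E-NHSM, 2400 in NHSM-v, 2940 in 4i/L/b, 2980 in TL2i, 2560 in t2iLGöY, 4450 in LCDM, and 1990 in TL-CDK8/19i. Tested markers higher and lower than in primed cells were 0 and 4 of 6 in E-NHSM, 5 and 1 of 7 in NHSM-v, 4 and 0 of 6 in 4i/L/b, 3 and 0 of 6 in TL2i, 6 and 2 of 8 in t2iLGöY, 7 and 0 of 8 in LCDM, and 2 and 1 of 6 in TL-CDK8/19i. Leaving out replicate 1 brings those lower in E-NHSM and those higher in 4i/L/b to 2, and leaving out replicate 2 those higher in NHSM-v to 3. Those lower in t2iLGöY are 1 without J1, replicate 2, or replicate 3, and in TL-CDK8/19i those higher are 1 without replicate 1 and those lower 2 without K2. LCDM, which has the most SOX1, SOX3, and SOX21, has the highest sum, but NES is 3020 CPM of it and 2440 of the primed sum. The median log2 fold change of these markers is higher in t2iLGöY (4.23) than in LCDM (3.38). PAX6, another factor of neural progenitors, was at 3.47 CPM in primed cells, 155 in t2iLGöY, 65.1 in LCDM, 23.8 in NHSM-v, 5.45 in TL2i, 4.87 in 4i/L/b, 3.34 in TL-CDK8/19i, and 2.73 in E-NHSM. TL2i and t2iLGöY overlap in SOX1 yet are far apart in PAX6. HES5, a target of Notch signaling in progenitors, had 0 counts in primed cells and was at least 396-fold higher in LCDM and at least 97.3-fold in t2iLGöY. HES5 had 8 counts in NHSM-v, all in the same library, 5 in TL2i, 2 in 4i/L/b, 1 in TL-CDK8/19i, and 0 in E-NHSM, although SOX1 was called higher in the first 3.

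Neuron markers (8 genes) sum to 299 CPM in primed cells, 201 in E-NHSM, 806 in NHSM-v, 449 in 4i/L/b, 279 in TL2i, 2360 in t2iLGöY, 2570 in LCDM, and 572 in TL-CDK8/19i. Those higher and lower were 2 and 2 of 6 in E-NHSM, 6 and 1 of 8 in NHSM-v, 6 and 2 in 4i/L/b, 5 and 3 in TL2i, 7 and 1 in t2iLGöY and LCDM, and 4 and 1 of 7 in TL-CDK8/19i. Those higher in E-NHSM drop to 0 without its replicate 1 or 2 and to 1 without J1, K1, K2, K3, or replicate 3. LCDM and t2iLGöY, the groups with the most SOX11, have the highest sums, and DCX, a marker of young neurons, was at 835 and 630 CPM in them and 2.48 in primed cells. Neural crest markers (4 genes) sum to 127 CPM in primed cells, 137 in E-NHSM, 226 in NHSM-v, 536 in 4i/L/b, 381 in TL2i, 613 in t2iLGöY, 271 in LCDM, and 244 in TL-CDK8/19i. Of these, 1 of 3 tested was higher and 1 lower in E-NHSM, 4 of 4 higher in TL2i, 1 of 4 higher and 3 lower in LCDM, and 3 of 4 higher and 1 lower in the other protocols. In LCDM the sum is mostly TFAP2B (259 CPM), while ETS1 fell from 90 CPM in primed cells to 8.41. Median log2 fold changes in LCDM were 3.38 for progenitor, 5.25 for neuron, and -2.41 for crest markers, beside 0.03 for all genes, and in t2iLGöY 4.23, 5.18, and 2.41, beside 0.02. The same medians were 2.51, 3.39, and 1.86 in NHSM-v, 0.73, 2.56, and 2.68 in 4i/L/b, 1.23, 1.97, and 1.96 in TL2i, 0.03, 1.24, and 1.38 in TL-CDK8/19i, and -1.06, -0.28, and -0.32 in E-NHSM. The part of any of these cell types in the levels of SOX1, SOX3, SOX21, SOX11, or ZIC2 was not tested.

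SOX5 and SOX6 also act in cartilage, and COL2A1, their target in chondrocytes, was at 11.7 CPM in primed cells, 1750 in 4i/L/b, 896 in TL2i, 872 in t2iLGöY, 737 in NHSM-v, 394 in TL-CDK8/19i, 324 in LCDM, and 3.73 in E-NHSM. The order resembles that of SOX5, which is also highest in 4i/L/b and lowest in E-NHSM, but LCDM stands above NHSM-v and TL-CDK8/19i only for SOX5. SOX6 differs: it is highest in t2iLGöY, and its 1.02 CPM in NHSM-v is close to the 1.03 in primed cells. An effect of SOX5 or SOX6 on COL2A1 was not tested. Summed chondrocyte markers (5 genes) were at 24 CPM in primed cells, 14 in E-NHSM, 750 in NHSM-v, 1760 in 4i/L/b, 950 in TL2i, 896 in t2iLGöY, 343 in LCDM, and 416 in TL-CDK8/19i. Most of each sum above the primed level is COL2A1: 1 of 4 tested markers was higher in NHSM-v and 4i/L/b, 2 of 4 in TL2i, t2iLGöY, and LCDM, 3 of 5 in TL-CDK8/19i, and 0 of 4 in E-NHSM, where 1 was lower. Those higher are 2 in NHSM-v without K2 or replicate 1, and 1 in LCDM without replicate 1 or 2. Fibroblast markers (8 genes) sum to 1920 CPM in primed cells, 460 in E-NHSM, 8140 in NHSM-v, 13800 in 4i/L/b, 4350 in TL2i, 3690 in t2iLGöY, 869 in LCDM, and 9820 in TL-CDK8/19i. They were higher for 1 of 6 in E-NHSM, 6 of 8 in TL2i, TL-CDK8/19i, NHSM-v, and 4i/L/b, 3 of 6 in t2iLGöY, and 2 of 8 in LCDM, and lower for 5 of 6 in E-NHSM, 4 of 8 in LCDM, 1 of 8 in TL2i, and 1 of 6 in t2iLGöY. Fibroblast markers lower in TL2i are 0 without its replicate 1 or 3, or against K alone. Endoderm markers (6 genes) sum to 15.8 CPM in primed cells and at most 149 in t2iLGöY, of which TTR is 148. They were higher and lower for 4 and 1 of 6 in TL2i, 2 and 1 of 6 in 4i/L/b, 1 and 2 of 5 in t2iLGöY, 0 and 2 of 4 in NHSM-v, 0 and 1 of 5 in LCDM, and 0 and 0 of 4 in the rest. Those higher are 2 in TL2i without replicate 2, 1 in 4i/L/b when any library of its own is left out and 4 without J3, and 2 in TL-CDK8/19i without J3. In E-NHSM 1 is lower without K1, K2, K3, or its replicate 1, and 2 with all 8 groups fitted together. Trophoblast markers (5 genes) sum to 7.75 CPM in primed cells and at most 177 in LCDM, nearly all of it TFAP2A. They were higher and lower for 4 and 0 of 5 in TL2i, 2 and 0 of 4 in TL-CDK8/19i, 1 and 0 of 3 in NHSM-v, 1 and 1 of 3 in t2iLGöY and LCDM, 0 and 1 of 2 in 4i/L/b, and 0 and 2 of 3 in E-NHSM. Those lower are 0 in 4i/L/b without replicate 1 or 2, and 1 in E-NHSM when J1, J2, K1, or any library of its own is left out. Trophoblast markers higher are 2 in t2iLGöY without its replicate 3, and 1 in 4i/L/b without J2. Whether chondrocytes or fibroblasts contribute to SOX5 and SOX6 was not tested.

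**Figure D5:**
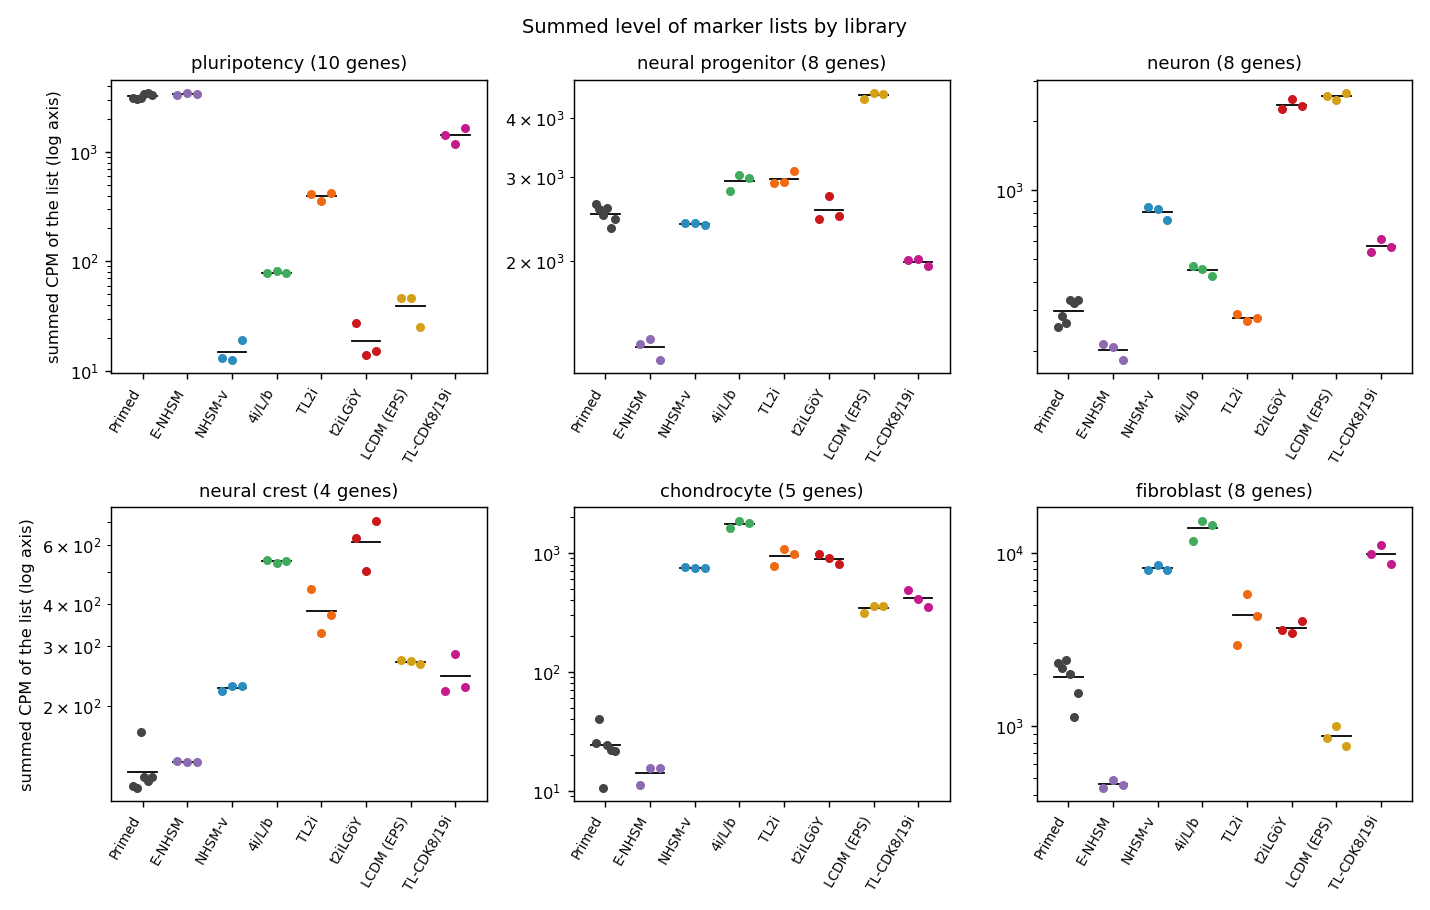
Summed CPM of 6 marker lists (panels, log axes) for each library by group, with bars at the means. Neuron markers are highest in LCDM and t2iLGöY, and chondrocyte and fibroblast markers in 4i/L/b.

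Over the 8 group means, members were also compared with each other and with 11887 expressed genes, as a description of levels only. SOX1 and SOX11 rose and fell together (Pearson r 0.879), as did SOX5 and SOX6 (0.825) and SOX1 and SOX5 (0.8). SOX2 ran against SOX5 (-0.757). The genes most like SOX1 were KIAA1841 (r 0.983) and ANKFY1 (0.982), and those most like SOX11 were NRXN2, a neurexin of neuronal synapses (0.984), and GSK3B (0.976). SOX3 was followed by GRM2, a glutamate receptor, and by ID4, a regulator of neural progenitors (0.973 and 0.944), and SOX21 by DHRS13 and ZNF891 (0.915 and 0.879, but 0.463 and 0.512 over the 27 libraries). For SOX5 they were SPON1, which guides axons (0.991), and TNFAIP2 (0.986), and for SOX6 C20H16orf46 and NECAB2 (0.967 and 0.963, but 0.603 and 0.591 over the 27 libraries). LRCH2 and WDFY1 were closest to SOX4 (0.953 and 0.949), TMEM70 and PAFAH1B2 to SOX2 (0.981 and 0.966), and PRCC and GATAD2A to ZIC2 (0.946 and 0.933). Of these 18 genes, 3 were still among the first 2 for their member over the 27 libraries: NRXN2, ID4, and GATAD2A.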

How the data were processed

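The count tables that the authors deposited were used as given: single NextSeq500 reads, for which the submitters name bcl2fastq, cutadapt, HISAT2, and HTSeq, without versions. Genome build, annotation, and the strand setting of HTSeq are not given in the sources used here. SOX2, SOX1, SOX4, SOX5, and SOX6 overlap another gene in a RefSeq table, so their counts are less certain. Samples were grouped by the protocol in their labels; primed columns carry the letters J and K, which the labels do not explain. Each comparison was fitted on its own groups with edgeR 4.0.16 in R 4.3.3 (TMM, filterByExpr, quasi-likelihood F test), with Benjamini-Hochberg adjustment over all genes tested and a limit of 0.05. Each SE is the absolute log2 fold change divided by the square root of F. With 0 to 3 counts in a group, a bound at 3 counts or a pooled ratio with an exact interval replaces the fold change. Alternatives were DESeq2 1.42.0 and its size factors, upper-quartile scaling, CPM on total counts, no filter, at least 10 counts in every library, all 8 groups in a single fit, each library left out, J or K alone, and replicate number as a block. Tested on simulated data with 6 against 3 libraries, DESeq2 called more unchanged genes than edgeR did, so its calls near the limit weigh less. Members and marker lists were chosen with earlier results of these data known, and LCDM was set against the mean of 4 protocols with its SOX2 level known. Beyond the members, genes named are those of a list with the highest mean level or largest fold change in a comparison, and the 2 genes with the highest correlation to each member. The levels of such a gene in other comparisons, and those of ZIC5 as the neighbor of ZIC2, were added after their values were seen. Results of some genes and lists are not reported here.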

Additional observations from a re-analysis of the deposited data

Results flagged for a closer look

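A Dixon test over the 6 primed libraries, at a limit that flags about 1 in 20 sets by chance, marked 5 of 44 genes or sums; genes with 3 counts or fewer over these libraries, such as SOX14 and POU3F4, were not marked. SOX6 was at 3.72 CPM in primed library K1 and at 0 to 1.18 in the others. SOX17 was at 2.47 CPM in J2 and at 0 to 0.0865 in the others. SOX30 was at 0.519 CPM in K1 and at 0 in the others. POU3F3 was at 0.539 CPM in K3 and at 0 to 0.111 in the others. The summed neural crest markers were at 167 CPM in J3 and at 114 to 123 in the others. The causes of these differences were not tested.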

How the results depend on the processing

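Of 1422 alternative values for the members, 1339 kept direction and call, 36 lost the call, 32 gained it, and 15 changed sign, all of differences not called. The values that changed sign are log2 fold changes of SOX6 in E-NHSM without primed K1 (0.188) and in NHSM-v without replicate 2 (0.121) or 3 (0.148), SOX3 in E-NHSM (0.17) and TL2i (0.661) against J alone and in TL2i without K2 (0.382), SOX11 in E-NHSM against J alone (0.0346) and in TL-CDK8/19i against K alone (-0.0113), and SOX21 in t2iLGöY without J1 (-0.0374), J3 (-0.00156), or replicate 2 (-0.104) and against K alone (-0.156). Between TL-CDK8/19i and TL2i they are SOX11 without TL2i replicate 3 (0.0194) or TL-CDK8/19i replicate 3 (0.0191) and ZIC2 without TL-CDK8/19i replicate 2 (0.105). Over single libraries left out, the far ends of these results are -2.01 (SOX6, E-NHSM), -0.513 (SOX6, NHSM-v), -0.398 (SOX3, TL2i), 0.5 (SOX21, t2iLGöY), -0.131 (SOX11), and -0.206 (ZIC2). The cause was not tested. Fitting all 8 groups together moved the genes called in E-NHSM from 3486 to 5255, its members lower to 2 (also 2 against K alone), the members higher in TL-CDK8/19i to 4, and the members lower in LCDM against the mean of 4 protocols to 0. With at least 10 counts in every library fewer genes are tested, and members higher were 2 in NHSM-v, 2 in 4i/L/b, 0 in TL2i, 2 in t2iLGöY, 3 in LCDM, and 0 in TL-CDK8/19i, with 1 lower in NHSM-v against E-NHSM and 1 in LCDM against the mean. Leaving out single libraries gave 2482 to 3987 genes called in E-NHSM, 6790 to 8186 in NHSM-v, 6254 to 8068 in 4i/L/b, 5513 to 7578 in TL2i, 6470 to 7721 in t2iLGöY, 6591 to 8176 in LCDM, and 4760 to 6663 in TL-CDK8/19i. Between protocols it gave 8108 to 8985 (TL-CDK8/19i against TL2i), 8712 to 8963 (NHSM-v against E-NHSM, members lower 1 to 2, higher 4 to 5), and 6471 to 7785 (LCDM against the mean, members lower 1 to 2, higher 6 to 7). It gave members higher of 2 to 3 in TL-CDK8/19i, 5 to 6 in 4i/L/b and t2iLGöY, and 6 to 7 in LCDM, and members lower of 2 to 3 in TL2i, NHSM-v, and 4i/L/b. With replicate number as a block, 8420, 8787, and 7369 genes were called in these 3 comparisons, and 3 and 3, 4 and 1, and 7 and 2 members were higher and lower; the block ended the call of SOX3 in NHSM-v against E-NHSM (0.061) and no other call of a member that the main test made. The numbers do not pair samples: over 18 pairs, residual correlations within a number were -0.126 to 0.0227. Of genes called in E-NHSM, 42.3% were higher, and 52.3% with upper-quartile scaling, the largest such move (10 points). Of 4008 alternative counts for the gene lists, 278 moved by more than 1.5 times, and of 72 mean levels of the members scaled to total counts alone 16 moved by more than the SD of replicates.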
